A study of Mus musculus with 6 samples.

Results

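A set of 3494 chromatin regions had an ATAC-seq peak in both Th2 and both Th17 libraries and in neither Th9 library. To find them, touching or overlapping peaks of the 6 lists were merged on chromosomes 1 to 19, and a library was taken to call a merged region when at least 1 bp of one of its peaks lay in it. Of 225467 merged regions, 3494 met the rule, or 1.55%. These regions were selected on the calls themselves, so their presence in Th2 and Th17 and their absence from Th9 are a description and carry no test. For comparison, 4615 regions were called in all Th9 and Th2 libraries only, 655 in all Th9 and Th17 libraries only, 6561 in Th2 alone, 3484 in Th17 alone, 3051 in Th9 alone and 48805 in all 6 libraries.

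The study compared open chromatin between T helper subsets, with the Il9 locus as its main interest. Naive CD4+ T cells from the spleen of C57BL6/J mice were activated in culture with antibodies to CD3 and CD28, and ATAC-seq was then performed with the Tn5 transposase, which cuts and tags accessible DNA. Per the study's methods, Th2 cultures received IL-4 and IL-2 with antibody to IFN-gamma, Th9 cultures received the same with TGF-beta in addition, and Th17 cultures received IL-6, TGF-beta, IL-23 and IL-1beta with antibodies to IFN-gamma, IL-4 and IL-2. Th9 and Th2 cultures therefore shared IL-4 and IL-2, and Th9 and Th17 cultures shared TGF-beta, whereas Th2 and Th17 cultures shared activation and the antibody to IFN-gamma, which the Th9 cultures had as well. All 6 libraries came from wild-type cells, with 2 for each subset, numbered 1 and 3 in the labels. The labels do not say whether the replicates came from separate animals, so p-values here measure only the spread between these libraries. Cultures were not sorted for cytokine-producing cells as far as the sources used here state, so a peak describes a mixed culture.

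Open chromatin away from promoters often marks enhancers, where transcription factors displace nucleosomes. In activated T cells the AP-1 factors of the Fos, Jun and BATF families, which bind together at short palindromic sites, open many such elements in every subset. GATA3 directs Th2 cells, RORgammat directs Th17 cells, RUNX factors act throughout the T cell lineage, STAT proteins carry cytokine signals, TCF factors mark naive and memory cells, and CTCF anchors chromatin loops.

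To show what these regions hold at their centres, 6 sequences are given. They are the 300 bases around the centre of 3 of the regions with the strongest peaks (near Rnf144a, in Sugct and in Atp10a), of a promoter region (Ankrd22), and of the regions with the largest difference toward Th2 (in Nbas) and toward Th17 (in Pik3cb), on the plus strand of GRCm38 with capitals for each match to a searched motif. They were chosen for peak strength, position or difference and not for their matches, and regions whose central bases touched an annotated exon were passed over.
Rnf144a, chr12:25994056-25994355: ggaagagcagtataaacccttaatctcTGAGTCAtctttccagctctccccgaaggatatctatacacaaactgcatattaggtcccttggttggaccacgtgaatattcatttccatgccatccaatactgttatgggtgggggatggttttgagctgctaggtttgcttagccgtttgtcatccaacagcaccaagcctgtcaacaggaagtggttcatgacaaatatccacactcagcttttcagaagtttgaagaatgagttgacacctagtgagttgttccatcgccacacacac
Sugct, chr13:17049294-17049593: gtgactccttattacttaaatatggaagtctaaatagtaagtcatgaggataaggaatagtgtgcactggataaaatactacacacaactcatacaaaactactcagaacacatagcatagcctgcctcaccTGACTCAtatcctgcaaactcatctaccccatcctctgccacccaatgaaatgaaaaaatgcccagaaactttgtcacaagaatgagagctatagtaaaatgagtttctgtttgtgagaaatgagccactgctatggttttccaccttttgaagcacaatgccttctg
Atp10a, chr7:58672010-58672309: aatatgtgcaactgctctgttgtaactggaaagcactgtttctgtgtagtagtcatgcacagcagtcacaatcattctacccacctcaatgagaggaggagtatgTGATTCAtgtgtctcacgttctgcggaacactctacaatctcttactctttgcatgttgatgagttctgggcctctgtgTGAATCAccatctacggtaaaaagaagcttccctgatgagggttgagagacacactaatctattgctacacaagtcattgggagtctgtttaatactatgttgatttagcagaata
Ankrd22, chr19:34166313-34166612: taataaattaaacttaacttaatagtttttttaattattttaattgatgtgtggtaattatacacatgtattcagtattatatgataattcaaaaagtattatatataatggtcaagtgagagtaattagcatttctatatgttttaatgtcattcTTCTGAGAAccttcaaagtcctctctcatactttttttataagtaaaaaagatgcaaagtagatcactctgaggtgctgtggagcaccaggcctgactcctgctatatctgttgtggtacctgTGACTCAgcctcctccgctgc
Nbas, chr12:13562800-13563099: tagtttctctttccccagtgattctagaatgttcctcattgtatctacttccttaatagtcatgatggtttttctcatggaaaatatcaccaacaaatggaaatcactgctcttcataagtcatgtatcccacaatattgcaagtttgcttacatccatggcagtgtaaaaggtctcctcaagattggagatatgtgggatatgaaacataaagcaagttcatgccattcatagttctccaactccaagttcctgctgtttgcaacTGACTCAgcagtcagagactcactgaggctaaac
Pik3cb, chr9:99083534-99083833: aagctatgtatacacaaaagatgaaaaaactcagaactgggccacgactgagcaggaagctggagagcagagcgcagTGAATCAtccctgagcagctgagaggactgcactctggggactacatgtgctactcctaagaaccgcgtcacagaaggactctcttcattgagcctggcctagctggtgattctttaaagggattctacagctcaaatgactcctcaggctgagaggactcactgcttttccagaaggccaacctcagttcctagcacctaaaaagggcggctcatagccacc
Each of the 6 sequences held the AP-1 word TGANTCA at least once, which is not typical of the shared regions, of which 16.5% held it. In the named sets they came from, it was in 8 of the 12 strongest, 5 of the 10 promoter regions and 4 of the 10 with the largest differences. The Sugct region held it once, close to its centre, and the Atp10a region held it 2 times. The Ankrd22 region also held a STAT word, TTCNNNGAA.

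Depth differed between the libraries, and the shallowest was a Th9 library. The peak lists carry no read counts, but the fold enrichment and p-value of their flattest peaks gave a background coverage of 5.65 fragments per position in Th9 replicate 1, against 12.1 in Th9 replicate 3, 11.2 and 15.2 in the Th2 libraries and 14.4 and 17.7 in the Th17 libraries. The lowest fold enrichment over background that was called was 2.11 in Th9 replicate 1 and between 1.71 and 1.83 in the other 5 libraries. T cell markers had 5 or 6 of 6 promoters called in every library, and the gene without a promoter peak, in Th9 replicate 1 and in Th17 replicate 1, was Cd4. B cell markers had 1 of 6 promoters called in each Th2 and Th17 library and 2 or 3 of 6 in the Th9 libraries, myeloid markers 1 or 2 of 6, natural killer cell markers 0 or 1 of 3 and erythroid markers 1 of 2 in every library. The part of other cells in the regions described here was not tested.

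The Th9 library that lacked peaks more often was not the shallowest. Among the 59613 regions called in all 4 Th2 and Th17 libraries, 48805 (81.9%) were also called in both Th9 libraries, 5233 (8.78%) only in Th9 replicate 1, 2081 (3.49%) only in Th9 replicate 3 and 3494 (5.86%) in neither. Th9 replicate 3, with the greater depth, had the shorter list, with 101102 peaks against 142213 in replicate 1. The part of depth and of list length in the missing Th9 peaks was not tested. Without Th9 replicate 1 the rule found 8764 regions, without Th9 replicate 3 it found 5578 and without Th17 replicate 3 it found 6187. Leaving out a library removes a condition of the rule, so a higher count was built in and is no measure of stability. Regions just outside the rule, with a peak in 1 Th9 library, had median folds not far above that library's limit. Where Th9 replicate 1 alone called the region the median fold was 2.45, against a limit of 2.11. Where Th9 replicate 3 alone did it was 2.19, against 1.83.

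**Figure D1:**
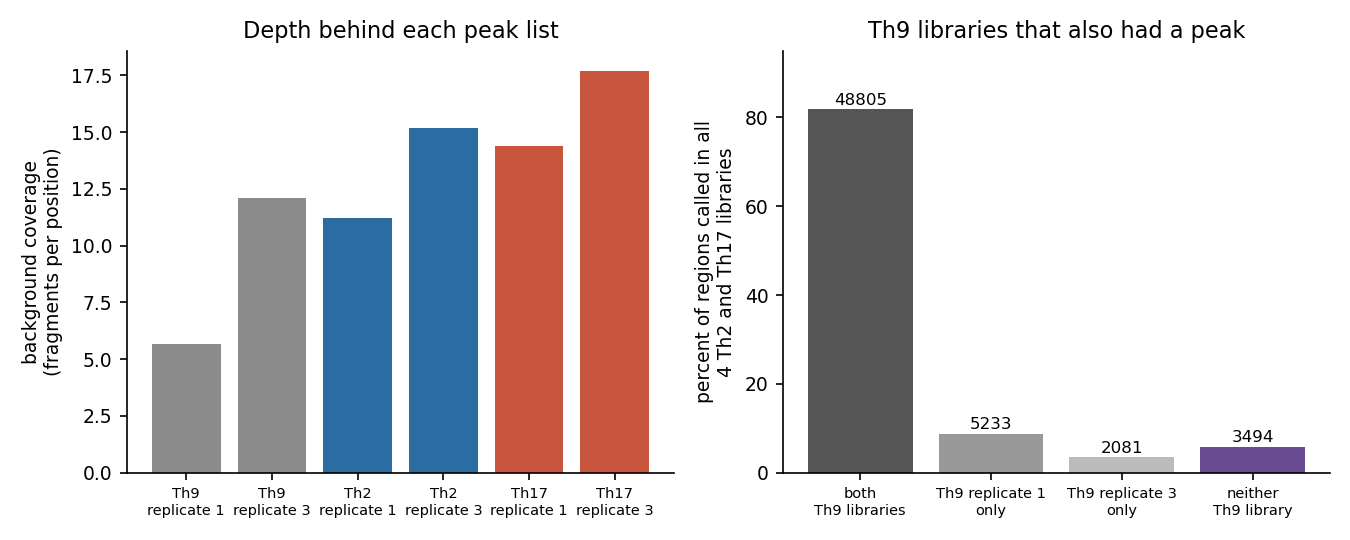
Left, background coverage in fragments per position for each of the 6 libraries, recovered from the peak lists. Right, the percent of the 59613 regions called in all 4 Th2 and Th17 libraries that were also called in both, in 1 or in neither of the Th9 libraries, with the number of regions above each bar. Th9 replicate 1 is the shallowest library at 5.65, yet 5233 regions were called in it and not in Th9 replicate 3, against 2081 the other way.

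The shared regions tended to be weaker than other regions called in all 4 libraries. Each peak was ranked by its fold enrichment within its own list, from percentile 0 for the weakest to 100 for the strongest. The median percentile of the 3494 regions was 46.0 and 41.5 in the Th2 libraries and 49.5 and 41.5 in the Th17 libraries. Over all 59613 regions called in these libraries it was 74.8, 68.9, 73.4 and 67.1. Below percentile 50 in all 4 libraries lay 1127 of the shared regions (32.3%). Above it in all 4 lay 586 (16.8%), against 59.1% of all regions called in them. The median fold enrichment was between 2.06 and 2.2 in the 4 libraries, and the highest was between 5.85 and 8.65. Of the 3494 regions, 25 (0.716%) lay above percentile 75 in all 4 libraries, against 31.1% of all regions called in them. A fold above 2.11, the limit of the shallowest library, was reached in all 4 libraries by 929 of the shared regions (26.6%), and 0 reached a fold of 4 in all 4, although 202 did so in at least 1. The rule used the calls in these same lists, so these values describe the selection.

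**Figure D2:**
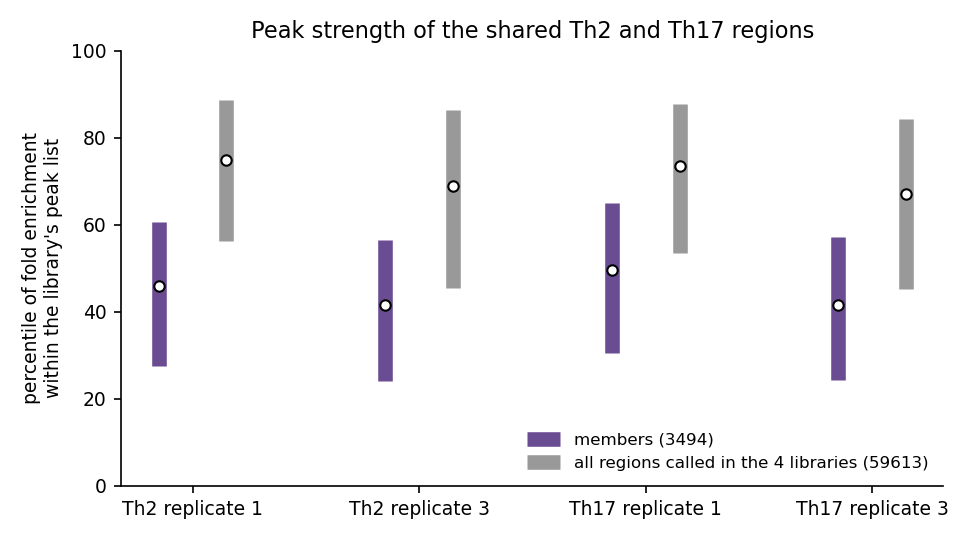
Percentile of fold enrichment within each library's peak list for the 3494 shared regions and for all 59613 regions called in the 4 libraries. Bars span the lower to the upper quartile and circles mark the median. The shared regions have medians between 41.5 and 49.5, in each library below the lower quartile of all called regions.

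The regions were of modest width, with a median of 696 bp from 227 to 5042 bp. In 3335 of them (95.4%) at least 1 base was covered in all 4 libraries at once, and the shared stretch had a median length of 223 bp. The nearest Th9 peak lay at a median distance of 5108 bp from the edge, and 218 regions (6.24%) had 1 within 1000 bp. Across the shared regions the Spearman correlation of fold enrichment was 0.58 between the Th2 libraries, 0.66 between the Th17 libraries and between 0.41 and 0.60 across subsets, compared with 0.81 to 0.92 over all 59613 regions. These correlations are over regions, whose narrow range of folds and shared lower limit enter the values.

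Most shared regions lay between genes. By the position of the centre against protein-coding genes of GENCODE, 2106 (60.3%, 95% Wilson interval 58.6 to 61.9) were intergenic, 1273 (36.4%, 34.9 to 38.0) intronic, 87 (2.49%) exonic and 28 (0.801%, 0.555 to 1.16) within a promoter, taken as the 1000 bp before and the 100 bp after a transcript start. Intergenic positions made up 54.5% of all regions, 41.1% of those called in all 6 libraries, 45.6% of those of Th9 and Th2, and 51.8% and 52.1% of those of Th2 alone and Th17 alone. Promoters made up 12.8% of the regions called in all 6 libraries and 3.52% of all regions. The promoter share was also low in other patterns, with 0.793% of the regions of Th2 alone, 1.03% of Th17 alone and 1.05% of Th9 alone. It was 0.305% for Th9 and Th17 and 2.25% for Th9 and Th2. Intervals cover counting error only, and regions are not replicates of a condition.

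The shared regions also lay farther from gene starts than the other patterns. The median distance from a shared region to the nearest start was 61622 bp, against 53888 bp over all regions. It was 51688 bp for Th17 alone, 45947 bp for Th2 alone, 30653 bp for Th9 and Th2 and 20214 bp for all 6 libraries. Of the shared regions, 1427 (40.8%) were over 100 kb from any start and 575 (16.5%) within 10 kb, compared with 37.2% and 20.4% of all regions. They took the largest share of a chromosome's regions on chromosomes 16 (196 of 8929) and 14 (253 of 12033), and the smallest on chromosomes 7 (134 of 14492) and 11 (75 of 7924).

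This position changed when peaks of low fold were left out of every list. Such a cut also removes Th9 peaks, so the regions it yields can include ones with a Th9 peak as deposited. When only peaks with a fold enrichment of at least 2.2, about the limit of the shallowest library, were kept in every list, 923 regions met the rule, and 666 of the 3494 (19.1%) overlapped one of them. Of the 923 regions, 48.1% were intergenic and 47.9% intronic, beside 50.2% and 40.3% of all regions treated in this way and 45.1% and 46.3% of those of Th9 and Th2. Their median distance to a start was 28302 bp, beside 28257 bp for Th9 and Th2. With a fold of at least 4 in every list 178 regions met the rule. None of them could overlap any of the 3494, since 0 of the 3494 reached a fold of 4 in all 4 libraries. The 178 therefore lay in regions that had a Th9 peak as deposited. With a −log10 q of at least 5, 2470 regions met it, and 281 of the 3494 overlapped one.

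**Figure D3:**
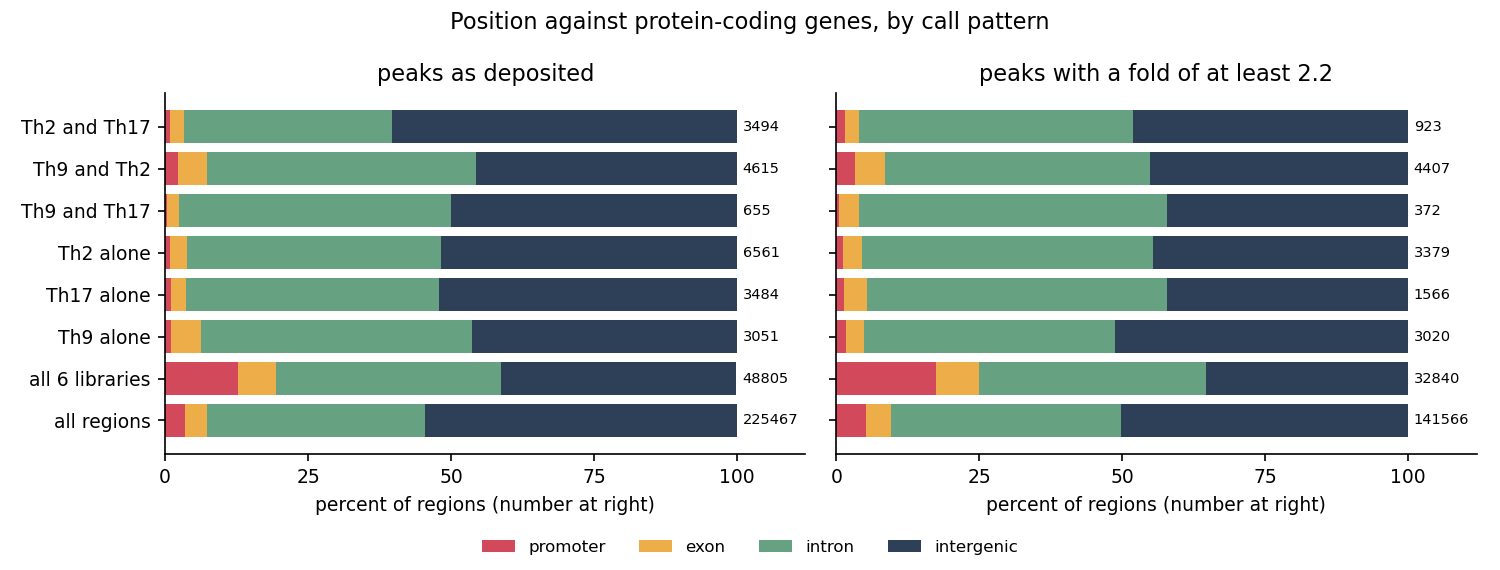
Percent of regions whose centre lies in a promoter, exon, intron or intergenic sequence of protein-coding genes, for each pattern of calls, with peaks as deposited on the left and with peaks of a fold of at least 2.2 on the right. The number of regions stands at the end of each bar. The intergenic share of the Th2 and Th17 regions is 60.3% on the left and 48.1% on the right.

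The sequence of the regions differed with peak strength. The median GC content was 45.6%, as in regions of Th2 alone (45.6%) and Th9 and Th2 (45.8%), and below that of regions called in all 6 libraries (49.8%). Repeats took a median of 27.3% of a shared region, against 19.3% over all regions and 14.5% for Th9 and Th2. In 27.8% of the shared regions repeats covered at least 50% of the bases, near the 26.1% of all regions. Repeats covered at least 90% of the bases in 7.99% of the shared regions, below the 12.8% of all regions. Split into 3 groups of equal size by mean percentile, the weakest group had a median repeat share of 38.9%, the middle group 30.0% and the strongest group 18.8%. The weakest group also lay farthest from genes, at a median of 122646 bp, beside 67022 bp and 33519 bp.

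AP-1 words varied most with strength among the 7 motifs searched. The central 300 bases of each region were read on both strands, and matches of different motifs may overlap. These bases cover a smaller part of a wider region. Median width was 853 bp in the weakest, 664 bp in the middle and 583 bp in the strongest group. By pattern it was 1428 bp for all 6 libraries, 844 bp for Th9 and Th2, 544 bp over all regions and 459 bp for Th2 alone. The part of width in the shares with a word was not tested. The words were TGANTCA for the AP-1 factors and AGATAA for the GATA factors. For RUNX factors the word was TGTGGTT, and for STAT proteins it was TTCNNNGAA. The retinoid-related orphan receptors of Th17 cells were represented by AGGTCA and the TCF factors by CTTTGAT, and the longer CTCF motif was searched by its consensus. An AP-1 word was found in 16.5% of the shared regions, in 11.8% of all regions and in 10.7% of those called in all 6 libraries, and it was more frequent in regions of Th2 alone (1533 of 6561, 23.4%) and of Th9 and Th2 (925 of 4615). The share was 9.18% in the weakest, 12.1% in the middle and 28.1% in the strongest group. With peaks of a fold of at least 2.2 it was 27.5% of the 923 regions, against 13.1% of all regions, 31.7% of those of Th2 alone, 21.1% of those of Th9 and Th2 and 19.1% of those of Th17 alone. The shared regions thus stood below those of Th9 and Th2 with peaks as deposited. The 923 regions, a set chosen anew at a fold of at least 2.2, stood above those of Th9 and Th2 at that cut.

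GATA words stood in 15.3% of the shared regions, against 12.3% of all regions and 20.6% of those of Th9 and Th2. STAT words showed a larger gap, with 7.81% of the shared regions, 8.61% of all regions and 17.8% of those of Th9 and Th2. RUNX words were in 7.04% of the weakest, 6.87% of the middle and 11.4% of the strongest group. CTCF words were in 2.63% of the shared regions, the same as in regions called in all 6 libraries, and in 1.38% of all regions. A match is a description of the letters and does not show that a factor bound there.

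**Figure D4:**
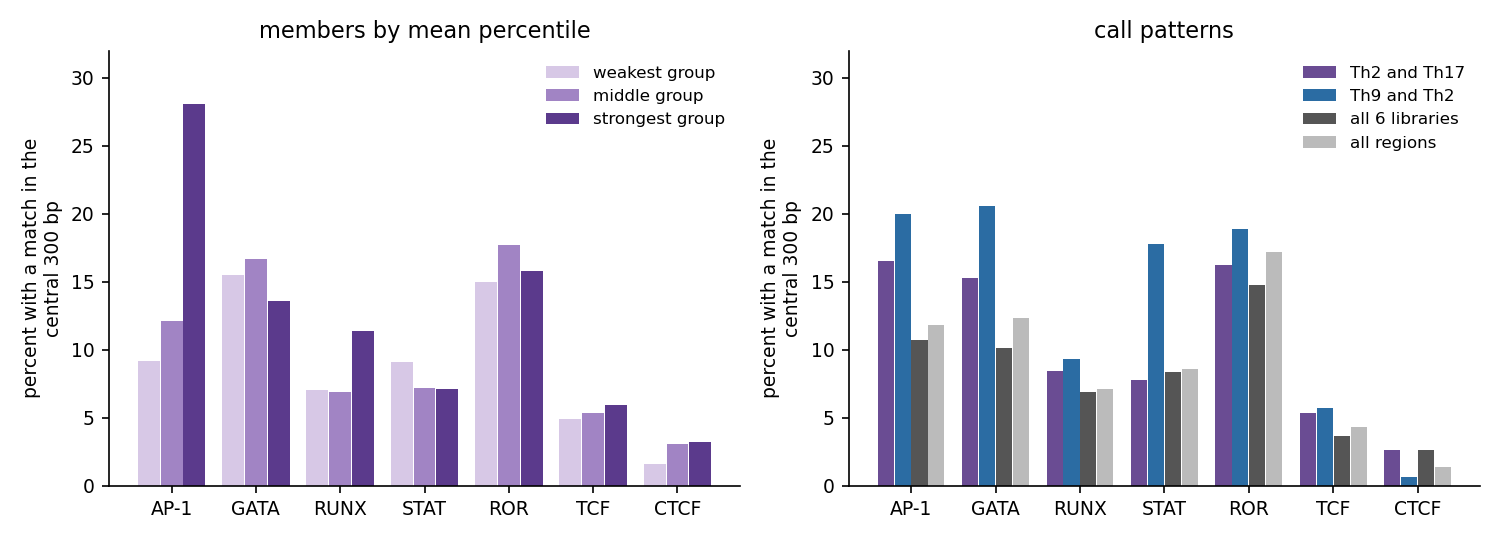
Percent of regions with at least 1 match to each of 7 motifs in the central 300 bases, on the left for 3 equal groups of the shared regions by mean percentile over the 4 libraries, on the right for 3 call patterns and all regions. The AP-1 share goes from 9.18% in the weakest to 28.1% in the strongest group, and STAT words are most frequent in the Th9 and Th2 regions, at 17.8%.

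The 12 regions with the highest lowest percentile over the 4 libraries had folds from 3.32 to 6.15, and 8 of them held an AP-1 word. Of these, 6 were intronic, 5 intergenic and 1 exonic. The region at chr13:17048995-17049891, in an intron of Sugct, a coenzyme A transferase, had folds of 5.59 and 4.68 in Th2 against 4.83 and 3.83 in Th17. The region at chr7:58671816-58672503, in an intron of Atp10a, a phospholipid flippase, had 4.42 and 4.62 in Th2 against 4.69 and 3.90 in Th17. Downstream of a ubiquitin ligase gene, the region at chr12:25994005-25994406, 421011 bp from the start of Rnf144a, had 4.42 and 4.74 in Th2 against 4.88 and 3.83 in Th17. In each of these the folds of the Th2 and Th17 libraries overlapped.

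Other strong regions lay upstream of Tbl1xr1, which encodes a subunit of a nuclear corepressor, in introns of Kcnab2, a potassium channel subunit, Cubn, an endocytic receptor, Ncald, a neuronal calcium sensor, and Rb1cc1, an autophagy factor, and upstream of Ascc3, a helicase, and Scaf8, an RNA-binding protein. The Tbl1xr1 region was 162341 bp from the start, consisted of repeats for 81.2% of its bases, and had folds of 4.99 and 6.15 in Th2 against 4.23 and 3.74 in Th17. The Rb1cc1 region had the lowest fold of the 12 in 3 of the 4 libraries, with 3.34 and 4.06 in Th2 against 3.58 and 3.32 in Th17. The remaining 2 lay downstream of the start of Otor and in an exon of R3hcc1l, nearest to Loxl4. None of the 12 passed limma between Th2 and Th17 at an adjusted p of 0.05, and the largest difference, near Ascc3, was -0.50 ± 0.17 (SE) on the log2 scale with an adjusted p of 0.093, the 1 region of the 12 with an unadjusted p under 0.05.

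Few promoters were among the shared regions, as among those of Th2 alone and of Th17 alone. Over their whole width, 61 of the regions reached the promoter window of 62 protein-coding genes. The strongest lay 827 bp upstream of Olfr1385, an olfactory receptor gene, with folds of 3.12 and 3.89 in Th2 against 3.21 and 2.97 in Th17. Other olfactory receptor genes among the 10 strongest were Olfr814 and Olfr769. The promoter of Klrc1, which encodes the inhibitory receptor NKG2A, had folds of 3.14 and 2.49 in Th2 against 3.31 and 3.43 in Th17. The promoter of Capns1, the small regulatory subunit of calpain, had 3.89 and 3.63 in Th2 against 3.04 and 2.01 in Th17, so that its libraries did not overlap (limma adjusted p = 0.20). Il1f8, an interleukin 1 family cytokine, had 2.22 and 3.32 in Th2 against 2.22 and 2.76 in Th17.

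A pair of the 10 strongest promoter regions differed between Th2 and Th17. Ankrd22, an ankyrin repeat gene, had folds of 4.15 and 4.36 in Th2 against 2.35 and 2.43 in Th17, a difference of 0.66 ± 0.18 on the log2 scale (limma adjusted p = 0.039). Slc23a4, a nucleobase transporter gene, had 2.16 and 2.40 in Th2 against 3.73 and 3.17 in Th17, a difference of -0.74 ± 0.18 (limma adjusted p = 0.018). The Ankrd22 region met the rule at a fold of at least 2.2, and the Slc23a4 region did not. The remaining 2 of the 10 belonged to Arhgef10l and to Pcdhgc5, a protocadherin, with folds between 2.31 and 3.68. The Ankrd22 call was lost whichever of the 4 libraries was left out, with limma adjusted p-values from 0.053 to 0.24, and the Slc23a4 call without each of Th2 replicate 1 and Th17 replicates 1 and 3, with 0.074 to 0.077.

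Some genes were the nearest start of many shared regions. A shared region had its centre in, or its nearest start at, 2330 of 20780 protein-coding genes (11.2%), and 2139 genes were the nearest start of at least 1. Of these, 100 genes were nearest to 5 or more and took 768 of the 3494 regions. The same 100 genes, chosen by this count, were nearest to 7.56% of all regions, and 4.50% of the regions nearest to them were shared ones, beside 1.55% of all regions. Pcdh20, a protocadherin, was the nearest start of 18 regions, Kcnt2, a potassium channel, of 16, Fam174a and Gpc5, a glypican, of 15 each, and Rgs18, a regulator of G protein signalling, Adcyap1, a neuropeptide gene, Slitrk1, a neuronal adhesion gene, and Pcdh9, a protocadherin, of 14 each. The 18 regions nearest to Pcdh20 lay 140081 to 2457851 bp from its start and had mean percentiles from 18.7 to 71.7. They were 5.10% of the 353 regions of any pattern nearest to that gene, and 11 of those 353 were called in all 6 libraries. Over the 8 genes the share ran from 4.42% of 317 regions for Pcdh9 to 11.5% of 130 for Fam174a. Several of these genes are known mainly from neurons, and their expression was not measured here.

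Against that background of 11.2% of genes, the lists of T cell genes held a shared region for 11.8% to 35.7% of their members on these chromosomes. The highest shares were 10 of 28 T cell receptor and costimulation genes (35.7%), 6 of 17 TGF-beta signalling genes (35.3%) and 5 of 15 naive and memory T cell genes (33.3%). They were followed by 4 of 18 AP-1, NFAT and NF-kappaB genes (22.2%), 10 of 50 T helper transcription factor genes, 4 of 22 cytokine genes (18.2%), 3 of 17 SOCS and feedback genes (17.6%), 3 of 20 migration and adhesion genes (15.0%) and 4 of 34 cytokine receptor genes (11.8%). The lists were not matched to other genes by length or by the width of their flanks, and the shares carry no test. In all, 84 shared regions lay at 49 list genes, at a median of 53602 bp from the start where the list gene's start was the nearest. Of the 84, 24 (28.6%) still met the rule at a fold of at least 2.2, against 19.1% of all 3494.

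Among cytokine genes, the region with the highest mean percentile was at chr3:37219145-37219795, 13095 bp downstream of the start of Il21, a cytokine of follicular helper and Th17 cells, with folds of 3.11 and 3.03 in Th2 against 3.06 and 2.67 in Th17. A further region in an intron of Il21, 3381 bp from the start, had 2.33 and 2.54 in Th2 against 2.22 and 2.25 in Th17. Both still met the rule at a fold of at least 2.2, as did a region 70585 bp downstream of Csf2, the gene for GM-CSF, with 2.77 and 3.16 in Th2 against 2.46 and 2.37 in Th17. The region 15750 bp upstream of Il22, which encodes a cytokine acting on epithelium, had 2.43 and 2.11 in Th2 against 3.91 and 2.47 in Th17. A region 16653 bp upstream of Il17a, the signature cytokine gene of Th17 cells, had folds of 1.89 and 2.39 in Th2 against 2.81 and 2.09 in Th17, so its Th2 and Th17 values overlapped. None of these 5 passed limma between Th2 and Th17, with adjusted p-values from 0.11 to 0.97, and 1 of them, near Il22, had an unadjusted p under 0.05. At Il22 both Th2 folds were below both Th17 folds, and with median centring this region was called, at -0.61 (limma adjusted p = 0.012).

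Among receptor genes, Il1r1, the receptor through which IL-1 acts on Th17 cells, had a region at its promoter at chr1:40224773-40225216, with folds of 2.18 and 2.71 in Th2 against 2.39 and 2.49 in Th17. Tgfbr2, a subunit of the TGF-beta receptor, had a region in an intron, 14195 bp from the start, with 2.04 and 2.0 in Th2 against 2.93 and 2.48 in Th17, a difference of -0.51 ± 0.14 (limma adjusted p = 0.037) that was not called whichever of the 4 libraries was left out, with adjusted p-values from 0.083 to 0.14. The Th17 libraries were both higher at Tgfbr2, and Il1r1 overlapped between the subsets. Neither the Tgfbr2 nor the Il1r1 region met the rule at a fold of at least 2.2. Lifr, the receptor for leukemia inhibitory factor, and Tgfbr3, a TGF-beta coreceptor, had intronic regions with mean percentiles of 48.4 and 8.62.

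Among T cell receptor and costimulation genes, the strongest region was in an intron of Cd44, an adhesion receptor raised on activated and memory T cells, with folds of 3.88 and 3.29 in Th2 against 5.42 and 3.90 in Th17 (limma adjusted p = 0.087). A region 86259 bp from the start of Btla, an inhibitory receptor, had 4.51 and 4.84 in Th2 against 3.74 and 2.41 in Th17 (limma adjusted p = 0.21). The folds of Th2 and Th17 did not overlap at either gene, though they nearly met at Cd44, which was called without Th2 replicate 1 (limma adjusted p = 0.033). Ptprc, the phosphatase CD45, had a region 13072 bp upstream with 3.15 and 3.58 in Th2 against 3.49 and 3.13 in Th17. Themis, a regulator of T cell receptor signalling, had a region 18436 bp upstream with 2.54 and 3.34 in Th2 against 3.47 and 2.96 in Th17. Cd28, the main costimulatory receptor, had a region at chr1:60744233-60744594 with 2.96 and 4.44 in Th2 against 2.46 and 2.29 in Th17 (limma adjusted p = 0.21, or 0.048 without Th2 replicate 1). Cd226 and Pdcd1, an activating and an inhibitory receptor, were each the list gene of 6 regions, most of them weak. Those of Pdcd1 were intergenic, 133897 to 568780 bp upstream of its start, and those of Cd226 lay 6123 to 204325 bp from its start. Of the 10 genes, 7 had a region that met the rule at a fold of at least 2.2. Of the 22 regions of this list limma called 0, and 6 had an unadjusted p under 0.05.

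Among transcription factor genes, Rbpj, the factor through which Notch receptors act, had a region with folds of 2.77 and 3.16 in Th2 against 3.48 and 3.13 in Th17. Runx1 had a region 321010 bp upstream with 3.54 and 2.72 in Th2 against 3.26 and 2.58 in Th17. Values of the subsets overlapped at both. Irf2, an interferon regulatory factor, had a region 17699 bp upstream with 3.17 and 4.10 in Th2 against 2.09 and 2.15 in Th17, a difference of 0.62 ± 0.18 (limma adjusted p = 0.046), which was lost without Th2 replicate 3 or either Th17 library, with adjusted p-values from 0.12 to 0.26. The Irf2 region did not meet the rule at a fold of at least 2.2. Tox, a factor of persistently stimulated T cells, had 4 regions, the farthest 437921 bp upstream. Of these, 1 met the rule at a fold of at least 2.2, in an intron 71174 bp from the start. Zeb2, a transcriptional repressor, had 5, a weak region at its promoter and others 676668 to 1251955 bp upstream. The 2 Zeb2 regions that met the rule at a fold of at least 2.2 lay 988162 and 1241415 bp upstream. Among AP-1 genes, Fosl2, a Fos family member, had an intronic region of another gene 79935 bp upstream of its start with folds of 3.93 and 4.53 in Th2 against 3.44 and 3.00 in Th17, beside a weaker one 99829 bp upstream. Both of the Fosl2 regions held an AP-1 word, as did the region 71812 bp upstream of Bach1, a repressor that binds related sites.

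All 5 of the naive and memory genes with a shared region, S1pr1, Bach2, Foxo1, Foxp1 and Satb1, had 1 that met the rule at a fold of at least 2.2. For Foxp1 this was a region 216551 bp downstream of its start, and the intronic Foxp1 region described below did not meet it. The Foxo1 region, 350210 bp downstream of the start of this quiescence factor, had folds of 2.89 and 3.59 in Th2 against 2.96 and 2.52 in Th17. Bach2, a repressor of effector genes, had an intronic region with 2.59 and 2.91 in Th2 against 3.31 and 2.31 in Th17. An intronic region of Foxp1, also a quiescence factor, at chr6:99035049-99035988, had 3.89 and 3.76 in Th2 against 2.51 and 2.01 in Th17, a difference of 0.64 ± 0.18 (limma adjusted p = 0.045), which was lost without Th2 replicate 1 or either Th17 library, with adjusted p-values from 0.086 to 0.36.

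The TGF-beta list held a called region in each direction, of which the 1 toward Th2 was lost in other fits. Smad4, the common partner of receptor-activated SMAD proteins, had an intronic region with folds of 2.34 and 2.59 in Th2 against 4.84 and 3.92 in Th17, a difference of -0.99 ± 0.18 (limma adjusted p = 0.0034). Skil, which encodes the SMAD corepressor SnoN, had an intronic region with 2.99 and 2.42 in Th2 against 1.83 and 1.81 in Th17, a difference of 0.50 ± 0.13 (limma adjusted p = 0.026). The Skil call was lost with median centring (0.41, limma adjusted p = 0.075), without Th17 replicate 1 (adjusted p = 0.19) and without Th17 replicate 3 (adjusted p = 0.17), whereas Smad4 was called in each fit that left out 1 library. Itgb8, an integrin subunit that activates TGF-beta, had 3 regions with mean percentiles from 28.8 to 51.8, and limma called 0 of them. Among migration genes, Gpr15, a gut homing receptor, had a region 1298 bp from its start with folds of 1.91 and 1.89 in Th2 against 3.65 and 3.26 in Th17, a difference of -0.99 ± 0.17 (limma adjusted p = 0.0017), and was also called with each library left out. Of the Smad4, Skil and Gpr15 regions only that of Smad4 met the rule at a fold of at least 2.2. Among feedback genes, 6 of 8 regions were those of Socs6, an inhibitor of cytokine signalling, and of the 8, 0 were called by limma and 0 had an unadjusted p under 0.05.

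Th2 and Th17 were compared across the shared regions by relative strength, which the rule did not use directly, since it asked only for a peak in each. A peak call is itself a cut on enrichment, so the rule bounded the compared folds and percentiles from below. The folds given above are as deposited, and differences are taken after quantile normalization. Per library, the median percentile over the 3494 regions was 43.8 ± 3.16 in Th2 and 45.5 ± 5.65 in Th17 (SD, n = 2 each), a difference of -1.71 that was smaller than either spread (two-sided exact permutation p = 1.00, where 0.333 is the smallest p this design allows). Region by region, limma on quantile-normalized log2 fold enrichment over the 59613 regions marked 44 of the 3494 (1.26%) stronger in Th2 and 99 (2.83%) stronger in Th17 at an adjusted p of 0.05. Over all regions tested, 4.89% were called stronger in Th2 and 2.67% stronger in Th17. In this fit the share called toward Th17 was near that of all regions, and the share called toward Th2 was below it. With median centring in place of quantile normalization, 44 (1.26%) were called toward Th2, of which 32 were among the first 44, and 176 (5.04%) toward Th17, against 5.59% and 3.61% of all regions. The share called toward Th2 was below that of all regions in every alternative fit. The share called toward Th17 was above that of all regions in most alternative fits. These included median centring, a fold of at least 2.2 in all 4 libraries (4.20% against 2.83%) and the length-weighted mean fold (2.89% against 2.66%). It was below that of all regions with a replicate block (2.75% against 2.87%) and without Th2 replicate 1. The lowest folds called in these libraries were 1.71 to 1.81, close to the medians of the shared regions, and the part of that limit in these counts was not tested. Without Th17 replicate 3 the number stronger in Th2 was 4 and without Th17 replicate 1 it was 11, and without Th2 replicate 1 it was 71, so it turned on single libraries. Across the 4 fits that left out 1 library, 3 of the 44 and 35 of the 99 were called in every one, and each of the 44 and 99 kept its direction.

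**Figure D5:**
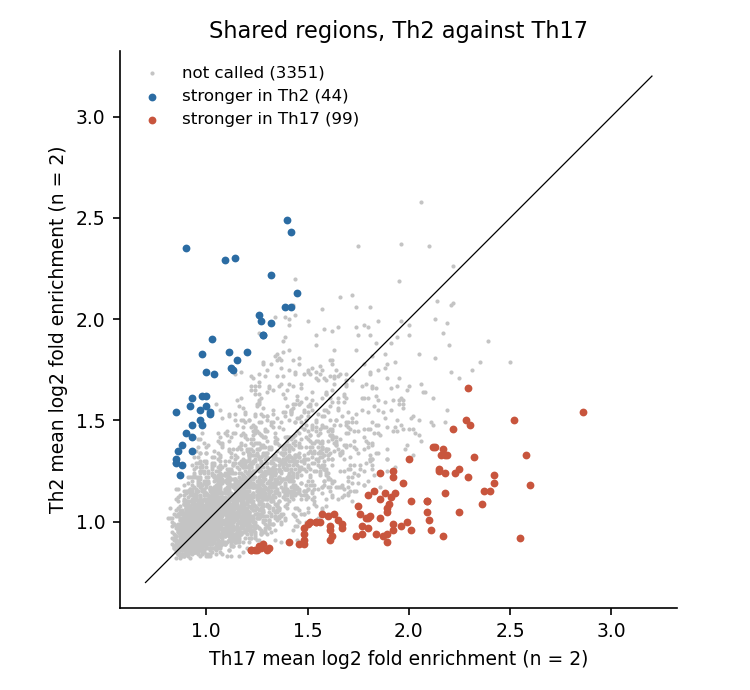
Mean log2 fold enrichment of the 2 Th2 libraries against the 2 Th17 libraries after quantile normalization, a point for each of the 3494 shared regions, with the line of equal values. Blue points are the 44 called stronger in Th2 and red points the 99 called stronger in Th17 by limma at an adjusted p of 0.05.

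The largest differences toward Th2 were in introns. Of the regions named here, those in Nbas, Bco1 and Ccdc7a did not meet the rule at a fold of at least 2.2. In Nbas and Ccdc7a the fold in Th17 replicate 3 was 1.74, near the lowest called in that library, 1.71. At chr12:13561837-13564061, in Nbas, a factor of retrograde Golgi transport, the folds were 4.62 and 6.57 in Th2 against 1.97 and 1.74 in Th17, a difference of 1.45 ± 0.20 (limma adjusted p = 3.6e-04). In Bco1, which encodes a carotene oxygenase, they were 4.71 and 6.02 against 2.29 and 2.03, and in Ube2v2, a ubiquitin-conjugating enzyme variant, 5.84 and 6.18 against 2.85 and 2.28. The Th2 libraries were above both Th17 libraries in each. The Ube2v2 region was covered by repeats for 90.7% of its bases. The other two were in Ccdc7a, 10164 bp from the start of Gm3952, and in 3300002I08Rik, 1711 bp upstream of Gm10130, with differences of 1.20 ± 0.24 and 1.00 ± 0.19, and these calls were lost without Th17 replicate 3 (limma adjusted p = 0.070 and adjusted p = 0.063).

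Toward Th17 the largest difference was at chr9:99083298-99084068, in an intron of Pik3cb, a catalytic subunit of phosphoinositide 3-kinase. Its folds were 2.09 and 1.75 in Th2 against 6.38 and 4.76 in Th17, a difference of -1.63 ± 0.19 (limma adjusted p = 1.0e-04). It was followed by an intergenic region nearest to 1700016C15Rik (-1.41 ± 0.18) and by introns of Fbxl17, an F-box gene (-1.32 ± 0.17), Uso1, a vesicle tethering factor (-1.26 ± 0.18), and Nek1, a protein kinase (-1.25 ± 0.18). At Fbxl17 the folds were 3.24 and 2.87 in Th2 against 7.09 and 6.85 in Th17. Both Th17 libraries were above both Th2 libraries at all of these. The Pik3cb and Uso1 regions did not meet the rule at a fold of at least 2.2. In Pik3cb the fold of 1.75 in Th2 replicate 3 was near the lowest called in that library, 1.73.

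The called regions held fewer repeats and lay less often between genes than those not called, with no test of the difference. Repeats took a median of 14.8% of the 99 regions stronger in Th17 and 18.5% of the 44 stronger in Th2, against 28.2% of the 3351 that were not called, and 36.4% were intergenic in either called group, against 61.3%. AP-1 words were found in 28 of the 99 (28.3%), in 13 of the 44 (29.5%) and in 15.9% of those not called, beside 26.4% of all regions called toward Th2, 14.7% of all called toward Th17 and 10.5% of all not called. The strongest of the 3 equal groups of shared regions, called or not, had 28.1% with an AP-1 word and a median repeat share of 18.8%. RUNX words were in 17 of the 99 (17.2%) and 3 of the 44 (6.82%), and ROR words in 24 of the 99 (24.2%) and 4 of the 44 (9.09%). Over all regions tested, RUNX words were in 15.3% of those called toward Th17 and 11.2% of those called toward Th2, and ROR words in 19% and 17.1%. The called regions among the shared ones are few, and these shares are given with no test.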

How the data were processed

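ATAC-seq was measured in 6 libraries of cultured mouse T cells. The authors trimmed reads with Trim Galore 0.4.3, aligned them to mm10 with bowtie2, removed duplicates with Picard along with mitochondrial and poorly mapped reads, and called broad peaks per library with MACS2 2.1.0 in paired-fragment mode without local background or input. A Tn5 shift and the calling threshold are not given in the sources used here. The deposited lists hold a display score, which was not used, a fold enrichment that is a linear ratio over background, and −log10 p and −log10 q as the authors' caller gave them.

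The members and gene lists were chosen with earlier results of these data known. Background coverage was solved from the fold and Poisson p of the commonest flat peak in each list, and precision is limited by it. A region's value in a library was its highest peak fold, expressed as a percentile within that list or as log2. Genes came from GENCODE M21 and sequence from GRCm38, with repeats as soft-masked bases. Th2 and Th17 were compared in R 4.3.3 with limma 3.58.1 (quantile normalization, trend, Benjamini-Hochberg over 59613 regions) without a replicate block, and by exact permutation in Python 3.11.15 with scipy 1.17.1. Same-numbered libraries did not deviate together (Pearson r 0.00 over all regions, 0.06 over the members). Joining, calling and limma were tested on simulated data.

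Named were the 12 members with the highest lowest percentile, 10 promoter genes by mean percentile, 8 genes nearest to most members (Gm and Rik names passed over in both), up to 5 regions a list by mean percentile and 5 with the largest called difference in each direction. The Skil region was named because it was called, and a weak Zeb2 and a weak Fosl2 region because of their gene, after their values were seen. The alternatives were stricter or equal-length lists, other overlaps and bins, other normalizations and values, other promoters and gene sets, and each library left out.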

Additional observations from a re-analysis of the deposited data

How the results depend on the processing

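The number of regions was 3494. It was 923 with peaks of a fold of at least 2.2 and 178 at a fold of at least 4. In bins of 1 kb it was 7004, and with either library of each subset 17898. With 1 library left out, which removes a condition of the rule, the number was from 4421 to 8764. Among the alternatives that kept all libraries it stayed within 1.5 times for 4, 2470 at a −log10 q of at least 5, 2739 with lists of equal length, 3935 with at least 50% of the region covered and 3472 with Th9 peaks widened by 500 bp, but 281, 2079, 1480 and 3472 of the 3494 were overlapped by these. The count stronger in Th2 was 15 with a fold of at least 2.2 in all 4 libraries and from 4 to 71 with 1 library left out, and the count stronger in Th17 was 176 with median centring (which left 44 stronger in Th2, 32 of them among those reported), 28 with a fold of at least 2.2 and from 67 to 124 with 1 library left out. Median centring shifted the median of all regions to -0.07 on the log2 scale and that of the members to -0.12. Of the 44 and 99 regions called, 9 and 25 were also called with a fold of at least 2.2 in all 4 libraries, where 666 members were tested. The difference in median percentile ranged from -5.70 to 2.29 with 1 library left out, turning to 0.53 without Th2 replicate 3 and to 2.29 without Th17 replicate 1. Promoters took 2.0% with all annotated genes, 3.29% with 2000 bp on either side, 1.75% by any overlap and 1.52% with a fold of at least 2.2. Introns took 41.2%, 33.2% and 47.9% with all genes, by any overlap and with that fold, and intergenic sequence 53.1% with all genes and 48.1% with that fold. The shares with an AP-1 or GATA word and the repeats and distances at a fold of at least 2.2 were added after seeing the data, and were 27.5%, 12.9%, 16.1% and 28302 bp.

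With the replicate block the counts were 41 and 96, of which 37 and 92 were called without it, and the difference in median percentile was -1.71 (exact permutation p = 1.00 within pairs). The libraries share only a number. Depth limits what the absence of a Th9 peak can show, since the lowest fold called in Th9 replicate 1 was 2.11.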
